A study of Rattus norvegicus with 12 samples.

Results

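The endogenous opioid system was followed in cultured heart muscle cells through its 8 genes, the 4 peptide precursors Penk, Pdyn, Pomc and Pnoc and the 4 receptors Oprd1, Oprk1, Oprm1 and Oprl1. Members were the probe sets whose platform annotation gave exactly 1 gene symbol, equal to one of these names. Each gene had 1 such probe set, so 8 of 27342 probe sets and 8 of 14324 genes were members. The cells were cardiomyocytes from hearts of 2-day-old Sprague-Dawley rats, taken from a single litter, grown for 3 days and then treated for another 3 days. The 6 control cultures received the vehicle, 0.1% DMSO, and the 6 DEHP cultures received 50 µg/mL DEHP in the same amount of DMSO. DEHP is the phthalate that softens the plastic of blood bags and tubing, and the comparison asked which transcripts differ in cells exposed to it at a concentration the submitters call clinically relevant. Total RNA of each culture was hybridised to 1 Affymetrix array. All replicates come from that one litter, so errors given here cover cultures and arrays, not litters.

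Opioid peptides are cut from larger precursor proteins in the secretory pathway. Penk encodes proenkephalin, the source of the enkephalins, Pdyn encodes prodynorphin, and Pomc encodes pro-opiomelanocortin, from which beta-endorphin, corticotropin and the melanocortins are made. Pnoc encodes prepronociceptin. The receptors are G protein coupled receptors that act through inhibitory G proteins, lowering cyclic AMP and opening inwardly rectifying potassium channels. Enkephalins act mainly on the delta receptor (Oprd1), dynorphins on the kappa receptor (Oprk1), beta-endorphin on the mu and delta receptors (Oprm1, Oprd1), and nociceptin on its own receptor (Oprl1). The heart is a known site of Penk transcription outside the nervous system, and delta and kappa receptors are known for their part in the protection of heart muscle by ischaemic preconditioning.

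Every value is a log2 ratio of an array to the probe set's own median over the 12 arrays, because the deposited table holds such ratios and no expression level. Differences between groups are kept by this scale, but it does not show how abundant a transcript was, or whether a receptor was above background, and levels cannot be set against each other between genes. For the same reason the labelled cell type could not be checked by the level of its markers. The family was chosen by its measured values in this very contrast, the log2 folds of DEHP over control, with the large difference in Penk known, so the group differences of the 8 members are a description and no p-value is attached to them. A member is said to have passed where its adjusted p in the limma fit over all 27342 probe sets was under 0.05, which places it in the table and supports nothing further.

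Penk stood far above control in the DEHP cultures, Pnoc was lower in all of them, and the other 6 members differed by at most 0.21 on the log2 scale. Penk (probe set 10875300) was 8.43-fold higher under DEHP (log2 fold 3.08 ± 0.27 SE, n = 6 arrays per group). Pnoc (probe set 10784546) was 1.45-fold lower (−0.54 ± 0.07). Of the 8 members 2 passed, 1 higher and 1 lower, which is 25.0% of the family. Among the 14324 genes with 1 symbol, the class the members belong to, the share was close to this at 24.6% (14.4% higher and 10.2% lower). Over all probe sets, many of them without a gene name, 18.3% passed (10.5% higher and 7.82% lower). The same 2 genes were the ones whose groups did not overlap, as was so for 12.2% of all probe sets (7.12% with DEHP above and 5.12% with DEHP below). The median log2 fold of the 8 members was −0.10, beside −0.02 over all probe sets, and 6 of the 8 had a lower mean under DEHP, as did 59.1% of all probe sets.

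**Figure D1:**
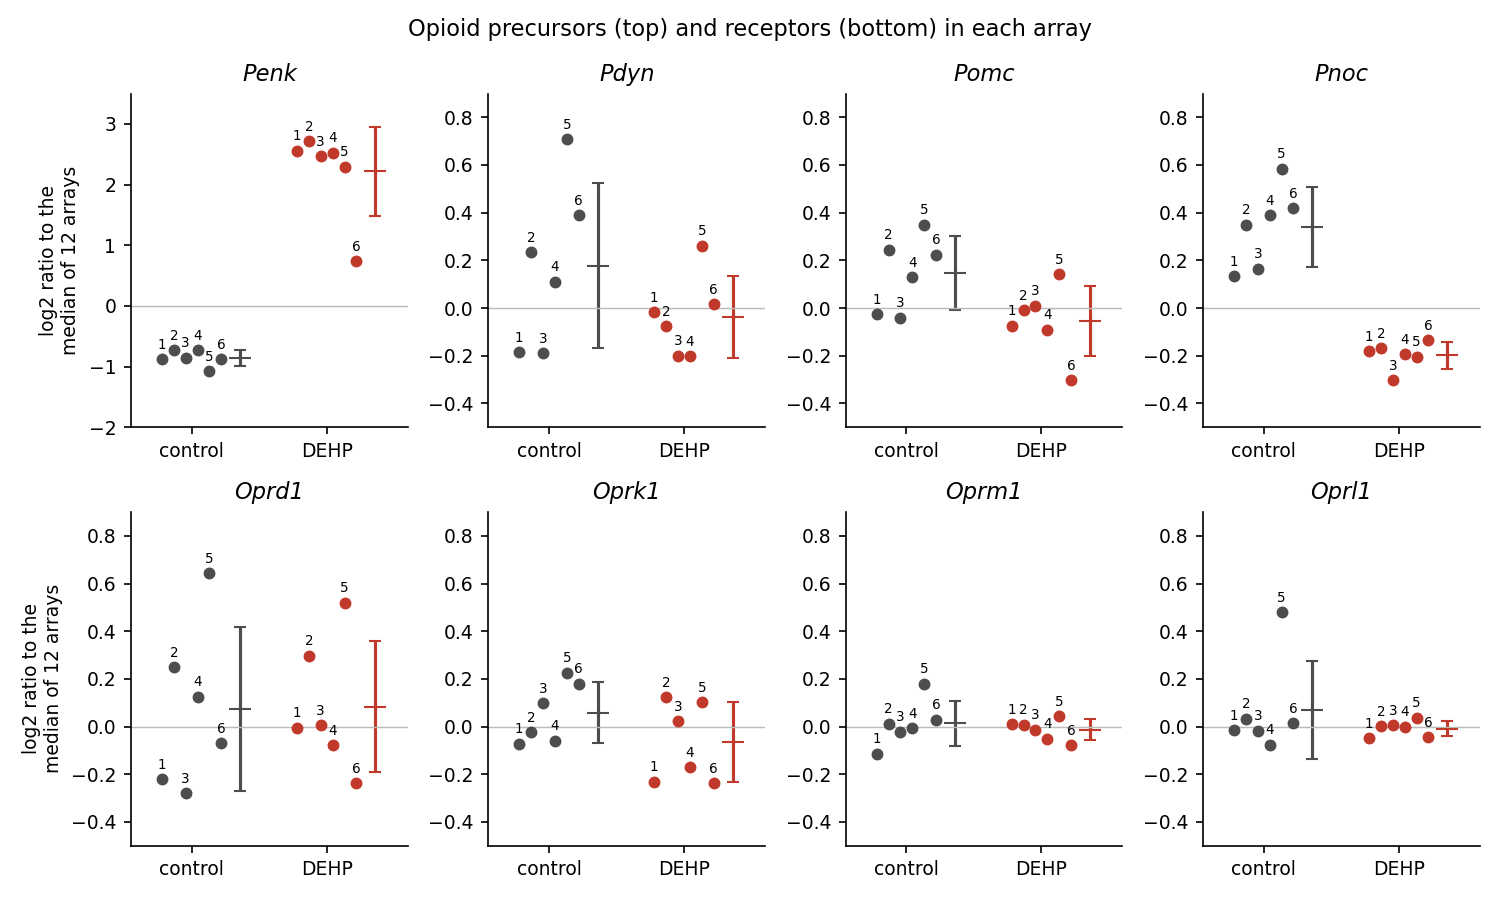
Log2 ratio to the probe set's median in each of the 12 arrays, for the 4 precursors (top row) and the 4 receptors (bottom row). Points are arrays numbered by replicate, bars to their right the mean ± SD of 6 arrays, and the vertical scale of Penk is wider than that of the others. Penk lies between −1.07 and −0.73 in controls and between 0.73 and 2.71 under DEHP, Pnoc is the other gene with groups apart, and control replicate 5 is the highest control for 7 of the 8 genes.

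Penk values were tight in controls and tight in all but one of the DEHP cultures. In control arrays the log2 ratios were −0.88, −0.74, −0.86, −0.73, −1.07 and −0.88 in replicates 1 to 6. In DEHP arrays they were 2.56, 2.71, 2.47, 2.52, 2.29 and 0.73. DEHP replicate 6 was therefore well below the other DEHP arrays, yet still 2.77-fold above the highest control. The mean ± SD was −0.86 ± 0.13 in controls and 2.22 ± 0.74 under DEHP (n = 6 each), and 2.51 ± 0.15 over the 5 DEHP arrays other than replicate 6. Its log2 fold was 3.37 ± 0.08 without DEHP replicate 6, and 3.33 ± 0.07 without both that array and control replicate 5. With all arrays the fold of Penk was the third highest among 14324 genes. The values of 0.73 in DEHP replicate 6 and −0.73 in control replicate 4 mirror each other because the ratio is taken to the median, which falls midway between these arrays.

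The position of DEHP replicate 6 was also apart in other genes. Its Penk value was 1.78 below the mean of the other 5 DEHP arrays, the fifth lowest such difference among 14324 genes. The array carried high ratios of inflammatory genes, chosen here after their values were seen from the 6 largest differences of that array. Serpinb2, a plasminogen activator inhibitor, was at 4.75 where the other 5 DEHP arrays lay between 0.16 and 0.73, and Ccl20, a chemokine, at 3.47 where they lay between −0.47 and −0.22. Il1b, the cytokine interleukin-1 beta, was at 3.02 where the other 5 lay between −0.80 and −0.52. Csf3, a granulocyte growth factor, was at 3.84 where they lay between −0.11 and 0.26. The part of these genes in the lower Penk value was not tested. The spread of Penk within groups (residual SD) was exceeded by 0.216% of all probe sets.

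One change of processing removed the difference in Penk. After cyclic loess normalization between arrays its log2 fold was −0.010 ± 0.64. Penk had the highest mean log2 ratio over the 12 arrays of all 27342 probe sets (0.68). This puts it at the very end of the scale along which the loess curve is fitted. That scale is a mean of ratios and not an expression level. Penk's place on it comes from its own group means (−0.86 and 2.22), so this setting cannot decide on the Penk difference. The same scale was used for every other gene whose call is given after cyclic loess. Giving the 8 members no weight in the loess curve, a setting chosen after seeing the data, left a log2 fold of 0.24 ± 0.62. Under every other setting tried Penk remained past the threshold, with a log2 fold of 2.90 after quantile normalization and 3.08 after median centring.

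**Figure D2:**
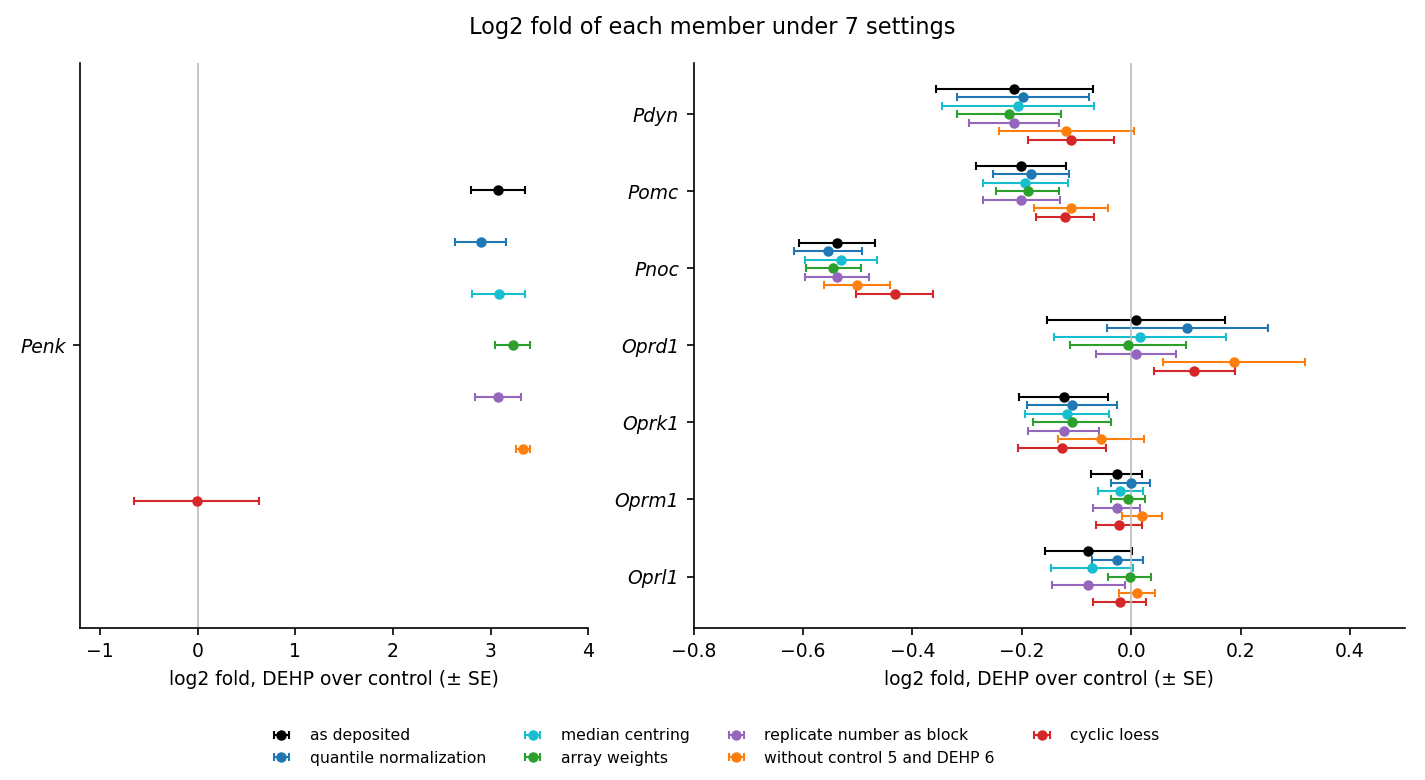
Log2 fold of DEHP over control (points, ± SE) for Penk (left) and the other 7 members (right, a narrower scale) under 7 settings. Penk lies between 2.90 and 3.33 in 6 of the settings and at −0.010 after cyclic loess, while Pnoc lies between −0.55 and −0.43 in all 7.

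Pnoc, the nociceptin precursor, was lower in each DEHP array than in any control. The control values ran from 0.13 to 0.58 with a median of 0.37, and the DEHP values from −0.30 to −0.13 with a median of −0.19. The gap between the groups was 0.27, wider than the range of the DEHP arrays among themselves. The group means ± SD were 0.34 ± 0.17 and −0.20 ± 0.06. Control replicate 5 was the highest, and without it the log2 fold was −0.49 ± 0.06. Without both control replicate 5 and DEHP replicate 6 it was −0.50 ± 0.06.

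The other precursors, Pdyn and Pomc, had lower means under DEHP with groups that overlapped, and neither passed. Pdyn ran from −0.19 to 0.71 in controls (median 0.17) and from −0.20 to 0.26 under DEHP (median −0.05). Its log2 fold was −0.21 ± 0.14 with a 95% interval of −0.53 to 0.10. Without control replicate 5 its log2 fold was −0.11 ± 0.12. Pomc ran from −0.04 to 0.35 in controls (median 0.18) and from −0.30 to 0.14 under DEHP (median −0.04), a log2 fold of −0.20 ± 0.08. Its 95% interval, −0.38 to −0.02, covers this gene alone and is not adjusted for the number of probe sets. Control replicate 5 was its highest control and DEHP replicate 6 its lowest DEHP array. The log2 fold of Pomc was −0.16 ± 0.08 without control replicate 5 and −0.11 ± 0.07 without both arrays. Pomc passed only when arrays were weighted by their quality (−0.19 ± 0.06).

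None of the 4 receptors passed in limma, and at an unadjusted p under 0.05 the count was also 0, where 28.3% of all probe sets lay under that value. With 4 genes this count is too small to be read against that share. Oprd1, the delta receptor, had the same centre in both groups and a wide spread in each. Its control values ran from −0.28 to 0.64 (median 0.03) and its DEHP values from −0.24 to 0.52 (median 0.00). Its log2 fold was 0.01 ± 0.16 with a 95% interval of −0.34 to 0.36. The small value was −0.08 without DEHP replicate 5 and 0.12 without control replicate 5. The arrays numbered 5 were the highest of their group for this gene, at 0.64 and 0.52.

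The kappa receptor Oprk1 ran from −0.07 to 0.23 in controls (median 0.04) and from −0.24 to 0.12 under DEHP (median −0.07). Its log2 fold was −0.12 ± 0.08, with a 95% interval of −0.30 to 0.05. The mu receptor Oprm1 ran from −0.11 to 0.18 in controls and from −0.08 to 0.04 under DEHP, with a log2 fold of −0.03 ± 0.05 and a 95% interval of −0.13 to 0.07. It also had the lowest residual SD of the family, at 0.07, and 21.5% of probe sets lay at or below it. Oprl1, the nociceptin receptor, lay between −0.08 and 0.03 in 5 of the controls and between −0.05 and 0.04 in all DEHP arrays. Control replicate 5 alone stood at 0.48. The log2 fold of −0.08 ± 0.08 became 0.00 ± 0.03 without that array. These values do not show that the receptors are alike in both groups.

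Single arrays stood out across most members. Control replicate 5 was the highest control array for 7 of the 8 members, where it was so for 39.6% of all probe sets, and it was the lowest control for Penk. DEHP replicate 5 was the highest DEHP array for 5 members, against 27.4% of all probe sets. DEHP replicate 6 was the lowest DEHP array for 5 members, against 25.4% of all probe sets. The SD of all log2 ratios was 0.37 in control replicate 5 and 0.27 in DEHP replicate 6, and 0.15 to 0.19 in the other 10 arrays. A list of 59 other neuropeptide and peptide hormone precursors had its highest mean in control replicate 5 too, at 0.36. Other lists described below had their lowest control mean in that array, among them opioid peptide degradation (−0.27) and the CREB and AP-1 list (−0.21). Values without some of these arrays are given above for Penk, Pnoc, Pdyn, Pomc, Oprd1 and Oprl1. For Oprk1 the log2 fold without control replicate 5 was −0.09 ± 0.08, and for Oprm1 it was 0.01 ± 0.04.

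Genes that follow Penk most closely were sought by the root mean square difference of log2 ratios over the 12 arrays, among 14323 other genes. The closest were Aox1, an aldehyde oxidase (0.752), Acot2, a mitochondrial acyl-CoA thioesterase (0.86), Igfbp5 (0.868), Pdk4, a kinase that inhibits pyruvate dehydrogenase (0.885), and Myh6, the alpha cardiac myosin heavy chain (0.891). For scale, the root mean square of the Penk values themselves was 1.75. All 5 rose under DEHP. The measure includes the difference between the groups, which is large in Penk, so closeness on it is in part that difference. Aox1 and Myh6 also had their lowest DEHP value in replicate 6, at 0.30 and 0.47.

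After the mean of each group was taken off, another set of genes came closest, with differences of 0.0807 to 0.147 against 0.483 for Penk itself. These were Aox3, a further aldehyde oxidase, Lypd1, Igfbp4, an insulin-like growth factor binding protein, Srpx2 and Fgl2. In each of them DEHP replicate 6 was the lowest DEHP array. Penk itself deviated most from its group mean in that array, so closeness on this measure is in large part a low value there. Their differences between groups went both ways. Igfbp4 rose (log2 fold 1.29 ± 0.24, adjusted p = 0.00208) and Srpx2 fell (−1.68 ± 0.25, adjusted p = 0.000386), while Aox3 (0.78 ± 0.28, adjusted p = 0.0722), Lypd1 (−0.23 ± 0.26) and Fgl2 (−0.45 ± 0.26) did not pass.

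**Figure D3:**
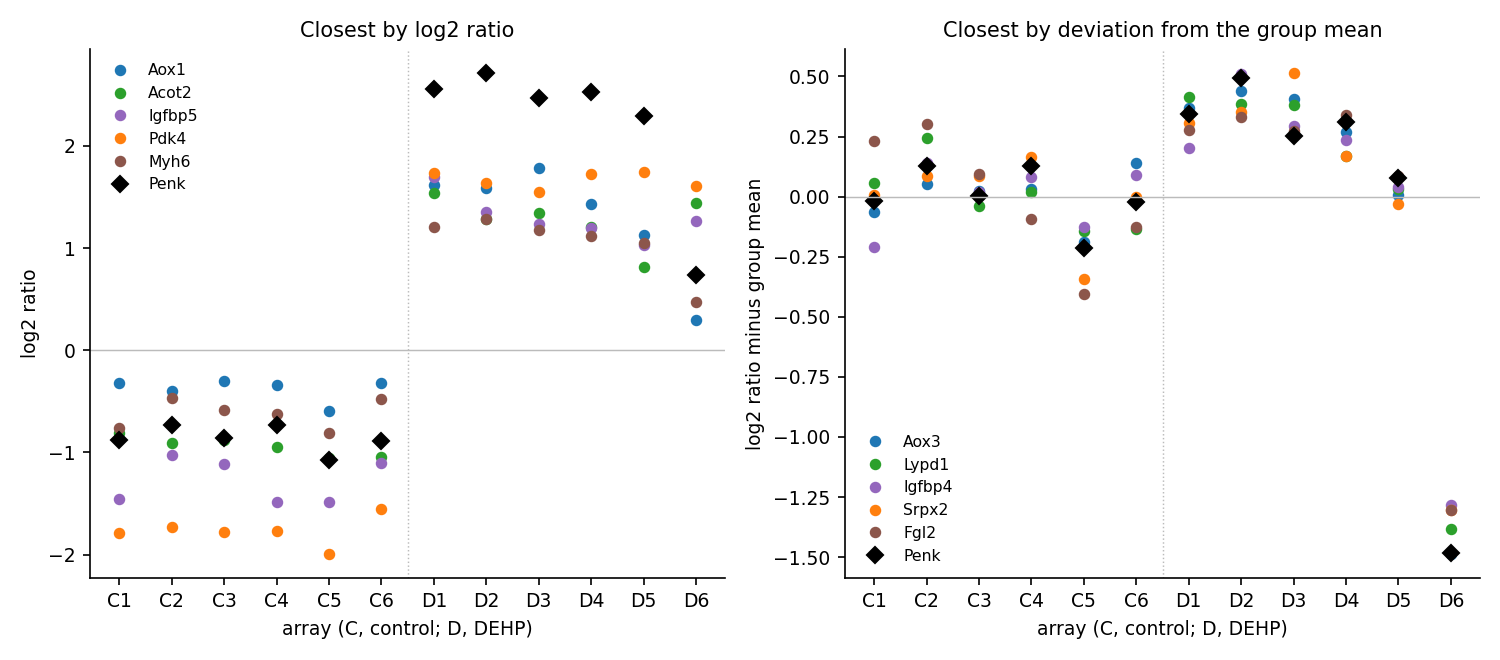
Penk (black diamonds) and the 5 genes closest to it over the 12 arrays, by log2 ratio (left) and by log2 ratio minus the group mean (right); C1 to C6 are control and D1 to D6 DEHP arrays. On the left all 6 genes are higher under DEHP, and on the right all 6 drop in DEHP replicate 6. Both features are in large part what each measure selects.

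Neighbours on the rat genome assembly GRCr8, used only for gene order, were sought after the values were seen. Only protein-coding genes with a matching platform symbol were counted, so genes without one were passed over. The nearest such genes to Penk had far smaller differences. So would nearly any gene, because the family was chosen with the large difference in Penk known. Sdr16c5 (log2 fold 0.05 ± 0.04), Sdr16c6 (adjusted p = 0.994) and Fam110b (0.10 ± 0.07) did not pass. Ubxn2b, the next such gene after Fam110b, rose by 0.40 ± 0.07 (adjusted p = 0.000954). Of the nearest such genes to Pnoc, Scara5 fell (−0.32 ± 0.07, adjusted p = 0.00627), and so did Pbk, a kinase of dividing cells (−1.24 ± 0.11). Zfp395 (0.10 ± 0.07) and Fbxo16 (−0.05 ± 0.05) did not pass.

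The remaining genes of the pathway were taken from lists, and their counts are set beside the 24.6% of 14324 genes that passed (14.4% higher, 10.2% lower; median log2 fold −0.02). Members of these lists were tested by limma with adjustment over all probe sets. In RNA from whole cultures, fewer cells of a type and less RNA per cell cannot be told apart.

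Enzymes that cut precursors into peptides went both ways, with 4 of 13 measured genes rising and 3 falling (median −0.08). Ctsl, cathepsin L, a protease known to process proenkephalin in secretory vesicles, rose by 0.47 ± 0.05 (adjusted p = 8.87e-06). The proprotein convertases Pcsk5 (0.69 ± 0.10) and Pcsk7 (0.26 ± 0.05) rose, as did the carboxypeptidase Cpd (0.18 ± 0.05). Pcsk6 fell (−0.45 ± 0.09), as did Qpct, which forms N-terminal pyroglutamate (−0.34 ± 0.07), and Scg5, the chaperone of the convertase PC2 (−0.20 ± 0.06). The call of Scg5 was lost after cyclic loess, and when any array other than control 3, control 5, DEHP 2 or DEHP 5 was left out (adjusted p up to 0.089). Pcsk2, which encodes PC2, the convertase that completes enkephalin release in neuroendocrine cells, was named after its value was seen and did not pass (−0.08 ± 0.12). Furin (0.10 ± 0.06) and Pam (−0.11 ± 0.06) did not pass.

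Peptidases that break opioid peptides down included the largest rise of the enzymes listed. Of 15 measured, 5 rose and 2 fell (median 0.12). Mme, neprilysin, the membrane enzyme also called enkephalinase, rose 2.38-fold (1.25 ± 0.16 on the log2 scale, adjusted p = 9.82e-05). Control values ran from −1.23 to −0.35 and DEHP values from 0.35 to 1.18, with the groups apart. DEHP replicate 6, the lowest DEHP array for Penk, was the highest for Mme. Anpep, aminopeptidase N, which removes the first residue of enkephalins, rose by 0.53 ± 0.14 (adjusted p = 0.0164), with groups that overlapped because of −0.22 in DEHP replicate 6.

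Ide, the insulin-degrading enzyme, rose (0.29 ± 0.07), and so did Ace, the angiotensin-converting enzyme (0.25 ± 0.07), and Npepps, a cytosolic aminopeptidase (0.23 ± 0.07). Ece2, an endothelin-converting enzyme, fell (−0.27 ± 0.04), as did Prep, prolyl endopeptidase (−0.21 ± 0.06). The call of Npepps held in leave-one-out fits only without control 1, 3 or 5 (adjusted p otherwise up to 0.107), and that of Prep only without control 5, DEHP 1 or DEHP 4 (up to 0.0828). The call of Ace was lost without control 3, 4 or 6 or DEHP 1, 2 or 4 (up to 0.0582), and those of Anpep, Ide and Prep after cyclic loess. Median centring ended the calls of Npepps and Prep, and robust eBayes that of Npepps. The count of 7 was 4 without control replicate 4, without control replicate 6 or without DEHP replicate 2. Rnpep (−0.24 ± 0.09), Nln (0.28 ± 0.11) and Ece1 (−0.13 ± 0.05) did not pass.

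**Figure D4:**
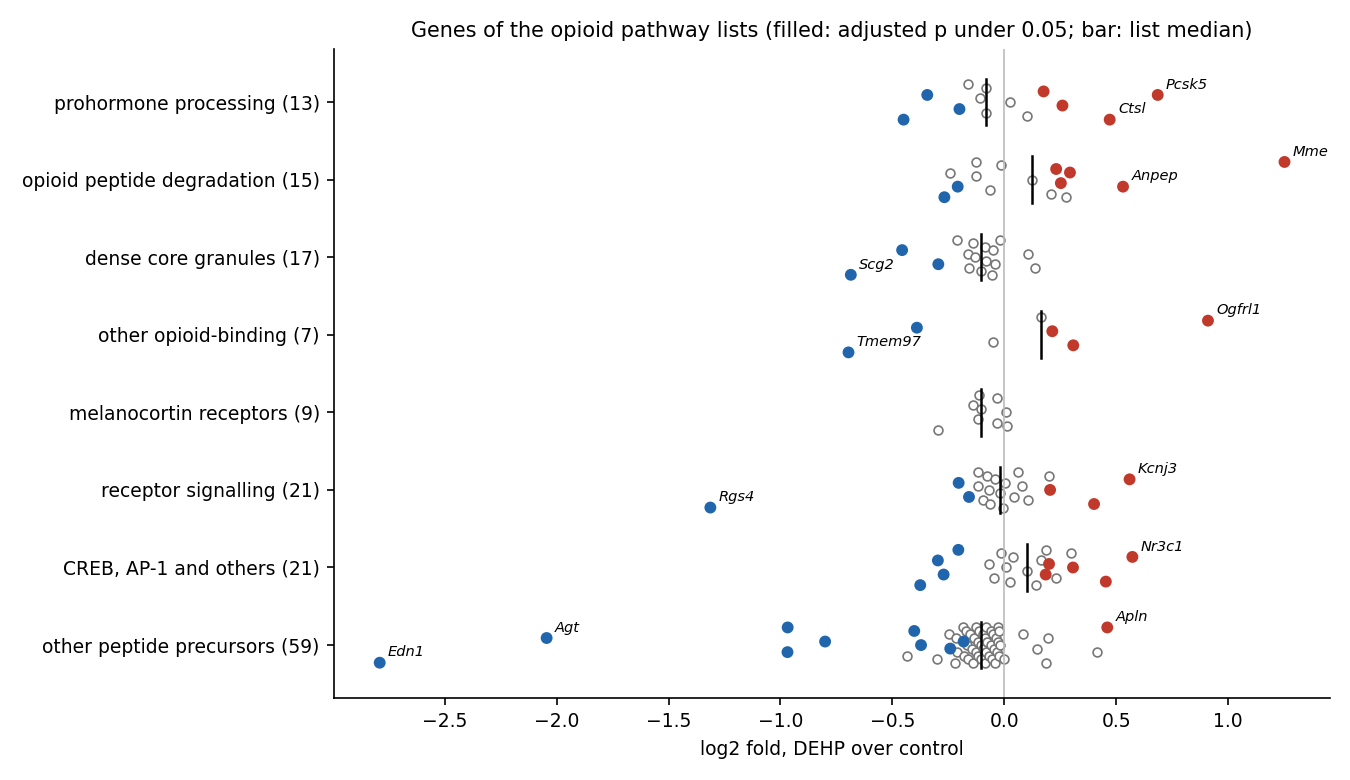
Log2 fold of DEHP over control for each measured gene of the 8 pathway lists, with the number of genes in brackets. Filled points passed limma (red higher, blue lower), open points did not, and bars mark list medians. Mme is the highest point among the degrading enzymes, no melanocortin receptor gene passed, and Edn1 and Agt lie far to the left among the other peptide precursors.

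Proteins of the dense core granules in which neuropeptides are stored did not rise. Of 17 measured, 3 fell and 0 rose (median −0.10). Scg2, secretogranin II, fell by 0.69 ± 0.11 on the log2 scale (adjusted p = 0.000478), and Ptprn (−0.46 ± 0.06) and the synaptotagmin Syt4 (−0.29 ± 0.05) fell too. Cadps (0.14 ± 0.05), Rab3a (−0.21 ± 0.09) and Sv2b (−0.14 ± 0.07) did not pass.

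Other precursors of neuropeptides and peptide hormones mostly fell or did not pass. Of 59 genes 1 rose and 9 fell (16.9% passed, median −0.11). Edn1, endothelin-1 (−2.79 ± 0.08), Agt, angiotensinogen (−2.05 ± 0.11), Nppb, the B-type natriuretic peptide (−0.97 ± 0.04), and Nppa, the atrial natriuretic peptide (−0.80 ± 0.04), had the smallest p among those that fell. The rise was in Apln, apelin (0.46 ± 0.09, adjusted p = 0.00284). Npy (−0.43 ± 0.15), Npb (0.41 ± 0.17) and Cartpt (−0.17 ± 0.07) did not pass.

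Receptors for the other products of Pomc gave no calls. None of 9 melanocortin receptors and partners passed in limma, 1 had an unadjusted p under 0.05 (28.3% of all probe sets did), and the median was −0.10. Mrap, the accessory protein of the corticotropin receptor, was at −0.29 ± 0.11 (adjusted p = 0.09), Mc5r at −0.10 ± 0.07 and Atrn at −0.11 ± 0.09. The count was 2 without control replicate 5, the array in which this list had its highest mean (0.29).

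A further list took genes that bind opioids or carry an opioid name, together with related genes such as Tmem97 and Gprasp1. Of its 7 measured genes 3 rose and 2 fell (median 0.17), so these counts are not of opioid-binding genes alone. Ackr3, an atypical chemokine receptor that also scavenges opioid peptides, rose by 0.31 ± 0.06 (adjusted p = 0.00295). Ogfr, the receptor for methionine enkephalin as a growth regulator, rose by 0.21 ± 0.06, a call lost without control 3 or DEHP 3, 4 or 6 (adjusted p up to 0.0565). Ogfrl1, named for its likeness to Ogfr, rose by 0.91 ± 0.19. Tmem97, the sigma-2 receptor, fell (−0.70 ± 0.09), and so did Opcml, a cell adhesion molecule (−0.39 ± 0.07). After cyclic loess 3 of the list passed in place of 5, without Tmem97 and Ackr3. Gprasp1 (0.17 ± 0.08) did not pass.

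In signalling downstream of the receptors 3 of 21 measured genes rose and 3 fell (median −0.02). Rgs4, which speeds the shut-off of inhibitory G proteins, fell most, by 1.31 ± 0.06 on the log2 scale (adjusted p = 5e-08). Kcnj3, a subunit of the G protein gated potassium channel, rose by 0.56 ± 0.07 (adjusted p = 0.000108). Gnai1, an inhibitory G protein alpha subunit (0.40 ± 0.11), and Prkcd, protein kinase C delta (0.20 ± 0.05), rose. Gnao1, the alpha subunit Go (−0.20 ± 0.05), and Grk6, a receptor kinase (−0.16 ± 0.05), fell. The call of Grk6 was lost without control 2, 4 or 6 or DEHP 3, 4, 5 or 6 (adjusted p up to 0.0731), that of Gnai1 without DEHP 1 or 4 (up to 0.0533), and those of Grk6 and Gnao1 after cyclic loess. With the replicate number as a block the call of Grk6 was lost too. Rgs19 (−0.12 ± 0.04), Arrb1 (0.20 ± 0.08) and Gnai3 (−0.12 ± 0.05) did not pass.

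Transcription factors described at the Penk promoter or of the same families changed in both directions, with 5 of 21 measured genes rising and 4 falling (median 0.10). Fos, an AP-1 subunit, fell by 0.30 ± 0.05 (adjusted p = 0.000468), and Junb fell by 0.27 ± 0.06. Crem, a relative of CREB that can repress cyclic AMP response elements (−0.38 ± 0.09), and Creb3 (−0.21 ± 0.04) fell as well. Nr3c1, the glucocorticoid receptor, rose by 0.57 ± 0.10 (adjusted p = 0.0016). Jun (0.31 ± 0.08), Atf2 (0.20 ± 0.05), Pou2f1 (0.19 ± 0.05) and Nfkb1 (0.45 ± 0.15) also rose. The call of Nfkb1 held in leave-one-out fits only without DEHP 5 or 6 (adjusted p otherwise up to 0.0818), and that of Pou2f1 was lost without control 2, DEHP 4 or DEHP 6 (up to 0.0633). After cyclic loess 4 of the list passed in place of 9, without Crem, Jun, Junb, Nfkb1 and Pou2f1. Nf1 (0.30 ± 0.12), Ep300 (0.19 ± 0.10) and Jund (0.10 ± 0.06) did not pass, and Nf1, which encodes neurofibromin, stood in this list by error.

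Markers of the cell types that such cultures can hold moved as well, and their part in the values of Penk and Pnoc was not tested. All 7 smooth muscle markers measured fell (list mean 0.58 to 0.77 in controls and −1.11 to −0.58 under DEHP). Fibroblast markers had 4 rises and 6 falls among 12, cardiomyocyte markers 3 and 5 among 12, endothelial markers 3 and 1 among 5, epicardial markers 3 and 1 among 5, and leukocyte and lymphocyte markers 2 and 3 among 9. Among 11 neuron and Schwann cell markers 3 fell and 0 rose, and chromaffin and sympathetic markers had 1 rise and 1 fall among 9. Some marker calls were lost in leave-one-out fits, namely S100b (in 9 fits), Cd8a (8), Upk1b (7), Myh7 (5), Tcf21 (4) and Ttn (1). After cyclic loess the calls of S100b, Myh7, Cd4 and the smooth muscle marker Des were lost. The mean of the chromaffin list ran from −0.05 to 0.35 in controls and from −0.19 to 0.14 under DEHP. Its highest control value, 0.35, was that of control replicate 5. In DEHP replicate 6 the means of the cardiomyocyte (−0.43), fibroblast (−0.27), smooth muscle (−1.11), endothelial (−0.27) and chromaffin (−0.19) lists were the lowest of the DEHP arrays, and those of the epicardial (0.27) and leukocyte (0.07) lists the highest.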

How the data were processed

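RMA, without a version, is the tool named in the submitters' processing notes. The authors deposited linear ratios. On the log2 scale the 12 values of every probe set had a median within 1e-06 of 0, so each deposited ratio is relative to that probe set's median, and the step that made it is not given in the sources used here. Log2 of the deposited ratios was used as it stands. Of 27342 probe sets 15097 had 1 gene symbol, 323 several and 11922 none. A gene outside the family took its lowest-numbered probe set.

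DEHP was compared with control by limma 3.58.1 in R 4.3.3 (lmFit and eBayes over all probe sets, two-sided, Benjamini-Hochberg). Values after ± are SE unless given as SD. Tested on simulated data with 200 altered probe sets among 27342, it made 182 calls, 7 of them false, and found 77% of shifts of 0.5 (log2) and 98% of shifts of 1. The simulated noise was independent, and each probe set had the same SD in every array. The real arrays were unequal, with an SD of all log2 ratios of 0.37 in control replicate 5 and 0.27 in DEHP replicate 6. It was 0.15 to 0.19 in the others, so the simulated rates may not hold for these data.

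The members and lists were chosen with earlier results of these data known. The rule for named genes took from each list the 4 that passed and the 3 that did not with the smallest p. Further names, given to complete counts, were picked once their values were known. Alternatives were other normalizations, array weights, robust eBayes, a replicate block, a stricter threshold and leaving out arrays. The filter on dim probe sets could not be run on ratios. The number of arrays limits the precision. Plots were drawn with matplotlib 3.10.9.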

Additional observations from a re-analysis of the deposited data

Results flagged for a closer look

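Penk in DEHP replicate 6 was at 0.73, far from the 2.29 to 2.71 of the other 5 DEHP arrays (gap over range 0.789, above Dixon's critical value of 0.625 for 6 arrays). Oprl1 in control replicate 5 was at 0.48, far from the −0.08 to 0.03 of the other controls (gap over range 0.806). These were 2 of 16 groups examined, and chance flags about 1 in 20.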

How the results depend on the processing

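Of 20 alternative settings, Pnoc passed in 20 and Penk in 18. Cyclic loess gave Penk a log2 fold of −0.010, or 0.24 with the members at weight 0 (added after seeing the data), and 1 member passed in each in place of 2. Leaving out each array in turn gave log2 folds of 2.98 to 3.37 for Penk, −0.58 to −0.49 for Pnoc, −0.29 to −0.11 for Pdyn, −0.24 to −0.15 for Pomc, −0.08 to 0.12 for Oprd1, −0.16 to −0.09 for Oprk1, −0.05 to 0.01 for Oprm1 and −0.11 to 0.00 for Oprl1, with 2 members past the threshold each time. Over all probe sets 5016 passed, 7614 with array weights, 3238 at an adjusted p under 0.01, and 4211 to 5556 with an array left out. Array weights gave 11 calls for peptide degradation (in place of 7), 3 for melanocortin receptors (0) and 5 for neuron and Schwann cell markers (3). An adjusted p under 0.01 gave 3 for peptide degradation, 2 for receptor signalling (6), 4 for CREB and AP-1 (9), 3 for leukocyte markers (5), 1 for chromaffin markers (2) and 2 for epicardial markers (4). Cyclic loess, with or without the members weighted, gave 3 for other opioid-binding, opioid-named and related genes (5), 4 for CREB and AP-1 (9) and 1 for melanocortin receptors. Quantile normalization and the setting without control replicate 5 and DEHP replicate 6 (also added) gave 1 for melanocortin receptors. With an array left out, peptide degradation had 4 to 9 calls and melanocortin receptors 0 to 2. The cause was not tested.

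With the replicate number as a block, Penk had a log2 fold of 3.08 ± 0.23 and Pnoc −0.54 ± 0.06, melanocortin receptors had 1 call and other peptide precursors 17 (10). The labels give replicate numbers but do not state that they pair samples, so the main fit had no block. Deviations of same-numbered arrays correlated from 0.0717 to 0.772, and 3 of 6 controls matched best with their own number. These values do not decide whether the samples were paired. Over all probe sets 6541 passed with the block, in place of 5016. The SE was 0.07 for Oprd1 (0.16 without the block) and 0.08 for Pdyn (0.14 without it), and neither gene passed.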
